A study of Mus musculus with 93 samples.

Results

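The data described here are the hepatic gene expression profiles of 5 wild-type (WT) mice given a single oral dose of trieicosapentaenoin, the triglyceride of the fatty acid C20:5, set against those of 3 WT mice given vehicle. These 8 arrays, each from the liver of 1 mouse, were chosen by their labels (WT, C20:5 or control, first of the study's 2 array runs) from the 93 arrays of the series. The study asked which hepatic genes respond acutely to individual dietary fatty acids and which of these responses need the nuclear receptor PPARα. All mice were male and had been kept on a run-in diet in which olive oil replaced corn oil. After a 4 h fast, they were gavaged with 400 µl of the triglyceride or, in the control group, with 400 µl of 0.5% carboxymethyl cellulose, which contains no fat, and livers were collected 6 h later. WT mice were of strain 129S1/SvImJ, and their labelled age was 8 to 24 weeks for C20:5 and 12 to 20 weeks for controls, so that part of any difference cannot be told apart from age. Comparisons were made with PPARα -/- mice (129S4/SvJae, thus of another substrain) given C20:5 (n = 4) or vehicle (n = 5), with the same difference in labelled age, and with WT mice of 8 to 24 weeks given the same volume of the triglyceride of C22:6 or C18:1 (n = 5 each).

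PPARα is a nuclear receptor that is abundant in liver and is activated by fatty acids and by fibrate drugs. With its partner RXR it binds direct repeats in DNA and raises genes of fatty acid transport, of mitochondrial and peroxisomal oxidation, of microsomal omega-hydroxylation and of ketone body synthesis. Eicosapentaenoic acid, C20:5, is a long-chain polyunsaturated fatty acid of fish oil. It differs from oleic acid, C18:1, and from docosahexaenoic acid, C22:6, in chain length and in the number of double bonds.

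Levels are given as log2 signal and changes as differences of mean log2 signal, C20:5 minus control. Of 11412 probesets, 62 changed with C20:5 in WT liver at a Benjamini-Hochberg adjusted p under 0.05 in limma, which is 0.543% of those tested, and 55 of them rose. At the unadjusted p under 0.01 that the study used, 356 passed (3.12%), of which 251 were higher and 105 lower. The adjusted count depended on single mice: it was 28 without control replicate 3, 29 without control replicate 2, 37 without C20:5 replicate 1 and 37 without C20:5 replicate 2. With the spread taken from these 8 arrays alone instead of from all 56 first-run arrays, 7 probesets passed. Represented by 1 probeset each, 30 of 6661 genes rose (0.45%) and 4 fell (0.0601%). The corresponding shares at the unadjusted threshold were 2.15% (143 genes) and 0.961% (64 genes). Every C20:5 array lay above every control array for 258 genes (3.87%) and below every control array for 182 (2.73%). The median change over all genes was -0.01.

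The arrays were alike in overall brightness, with median intensities between 138.0 and 144.2. The arrays farthest from their group means over all probesets were C20:5 replicate 5, with a root mean square deviation of 0.392, and control replicate 2, with 0.382, the other 6 lying between 0.21 and 0.308. Hepatocyte markers were high in all samples, with a mean log2 signal of 12.68 to 12.81 in C20:5 livers and 12.77 to 12.93 in control livers (7 of 8 markers measured). The mean for Kupffer cell and macrophage markers was 5.90 to 6.34 in C20:5 livers and 5.87 to 6.54 in control livers (13 of 14 measured), and no marker gene of any cell type passed the adjusted threshold. Bile duct markers were not measured, and in whole liver fewer cells of a type and less RNA per cell cannot be told apart. A PPARα probeset (1457721_at) separated the genotypes, at 8.10 to 9.28 in WT livers and 6.39 to 7.28 in PPARα -/- livers. A second (1449051_at) barely did, with a lowest value of 9.25 in WT livers and a highest of 9.23 in PPARα -/- livers. The brightest (1439675_at) did not separate them, with WT livers reaching down to 10.34 and PPARα -/- livers up to 10.58. It had a mean of 10.93 in C20:5 livers and 10.56 in WT control livers (change 0.37, adjusted p = 0.57, limma).

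**Figure D1:**
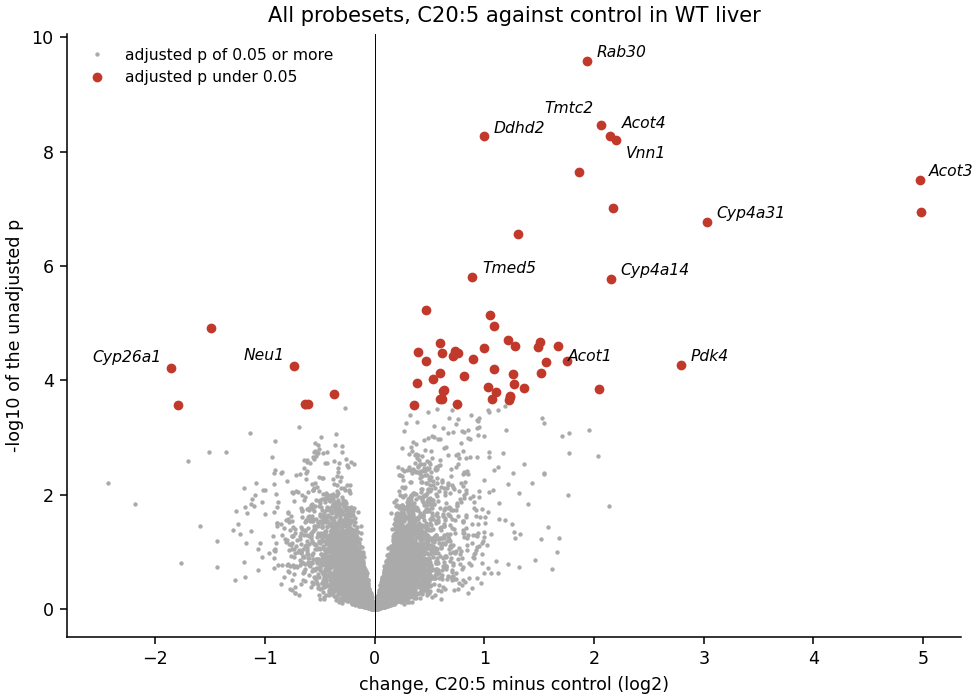
Change with C20:5 in WT liver (x axis, log2, C20:5 minus control) against the negative log10 of the unadjusted p (y axis) for each of 11412 probesets. Of the 62 probesets with an adjusted p under 0.05 (large red points), 55 lie on the right and 7 on the left.

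Among genes, the largest increase was that of Acot3, which encodes a thioesterase. Acyl-CoA thioesterases split acyl-CoA into the free fatty acid and coenzyme A. Of 10 thioesterase genes measured, 4 rose, namely Acot1, which is cytosolic, Acot2, which is mitochondrial, and Acot3 and Acot4, which are peroxisomal. These 4 lie side by side on the same strand of chromosome 12 within 72.5 kb, and the only other gene annotated in that stretch is the long non-coding RNA Gm40474. Since PPARα binds direct repeats, the RefSeq promoters (GRCm38.p6, 250 bases before to 50 after the start of a transcript, which for Acot4 lies inside the annotated gene) of the thioesterase genes with the largest changes are shown, with the closest match to the repeat AGGTCANAGGTCA, on either strand, in capitals:
Acot4, chr12:84038129-84038428, plus strand: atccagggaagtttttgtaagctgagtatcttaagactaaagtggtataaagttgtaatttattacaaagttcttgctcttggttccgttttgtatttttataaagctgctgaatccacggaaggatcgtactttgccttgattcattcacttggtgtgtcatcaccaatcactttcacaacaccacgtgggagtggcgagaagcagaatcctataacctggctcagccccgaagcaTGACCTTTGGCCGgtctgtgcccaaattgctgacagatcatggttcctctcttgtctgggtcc
Acot3, chr12:84051894-84052193, plus strand: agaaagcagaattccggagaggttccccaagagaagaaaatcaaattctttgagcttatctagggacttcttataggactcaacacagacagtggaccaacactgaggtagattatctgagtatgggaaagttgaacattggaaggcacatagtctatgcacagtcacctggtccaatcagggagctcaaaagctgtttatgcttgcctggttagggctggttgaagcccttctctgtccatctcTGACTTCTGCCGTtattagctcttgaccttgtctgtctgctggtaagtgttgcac
The match in Acot4 differed from the repeat at 2 of its 12 fixed letters and ended directly before the start site, while that in Acot3 differed at 3. The closest matches in Acot2 and Acot1, whose promoters are not shown, differed at 3 and 4. Counting every gene with a raised probeset, 30 of 38 had a promoter in the RefSeq table, and 1 of these, Acot4, held the repeat with at most 2 mismatches (3.3%), against 231 of 5475 measured genes (4.2%) and 3.9% of 32851 promoters. A match with at most 3 mismatches occurred in 24.6% of all promoters.

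Acot3 had log2 signals of 9.65, 9.74, 9.04, 8.89 and 9.94 in the 5 C20:5 livers, against 6.61, 2.08 and 4.76 in the 3 control livers. The groups did not overlap, but the controls were spread over more than 4 log2 units while the treated livers lay close together. The change of 4.97 (SE 0.75, adjusted p = 5.2e-05, limma) was the largest of all genes and ranged over 3.77 to 6.03 when each array was left out in turn. Control replicates 2 and 3, however, lay under the 10th percentile of their own arrays (4.82 to 5.04 over the 8 arrays), where differences cannot be told from background. With every such value set to that percentile, here called floored values, the change was 3.99 (15.8-fold, adjusted p = 4.4e-06), which was still the largest. Acot4 had signals of 7.26, 7.10, 6.39, 7.12 and 7.76 in C20:5 livers, against 5.21, 4.16 and 5.58 in control livers, which did not overlap either. Its change was 2.14 (SE 0.30, adjusted p = 1.5e-05), or 1.91 with floored values. Another Acot4 probeset, 1422077_at, had a floored change of 0.08 and did not pass (adjusted p = 0.96). Acot1 was already well expressed without fat, with signals of 10.30, 10.39, 9.72, 10.20 and 10.40 in C20:5 livers and 8.39, 8.39 and 8.80 in control livers. It rose by 1.67 (SE 0.36, adjusted p = 0.013), a call that was lost without control replicate 1 (adjusted p = 0.051) or 2 (0.065). Acot2 showed 7.26, 7.52, 6.82, 6.99 and 6.61 in C20:5 livers, against 5.53, 5.17 and 5.90 in control livers. Every treated liver again lay above every control, with a change of 1.51 (SE 0.32, adjusted p = 0.013, and 0.095 without control replicate 2). Another Acot2 probeset, 1422996_at, had a floored change of 0.04 and did not pass (adjusted p = 0.99). The Acot genes are close copies of each other. One raised probeset is annotated to both Acot2 and Acot1 (change 1.76, adjusted p = 0.016), and the Acot3 probeset is of a design that may bind several transcripts, so the share of each copy is uncertain. The other 6 thioesterase genes did not pass the threshold, and the median over all 10 was 0.26.

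Genes of omega-hydroxylation also rose. Cyp4a14, a cytochrome P450 that hydroxylates the far end of fatty acids, had signals of 11.24, 11.81, 10.60, 11.56 and 11.25 in C20:5 livers and 7.63, 9.28 and 10.50 in control livers. The lowest treated liver exceeded the highest control by a narrow margin. The change was 2.16 (SE 0.39, adjusted p = 0.0015), but 1.40 without control replicate 1 (adjusted p = 0.084). A close relative, Cyp4a31, showed 6.13, 7.25, 6.36, 6.38 and 6.52 in C20:5 livers, against 4.36, 3.10 and 6.00 in control livers on probeset 1440134_at (change 2.04, SE 0.49, adjusted p = 0.034). Control replicates 1 and 2 were under the 10th percentile of their arrays, and with floored values the change was 1.25 (adjusted p = 0.030). Without control replicate 2 the change was 1.35 (adjusted p = 0.33), and the close similarity of Cyp4a genes leaves the source of the signal uncertain. Of 8 measured genes of omega-oxidation, these 2 rose, and the list median was 0.09.

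In peroxisomes, 2 of 14 oxidation genes rose. Ehhadh, the bifunctional enzyme of peroxisomal beta-oxidation, gave 11.62, 11.64, 10.81, 11.59 and 11.59 in C20:5 livers and 10.65, 10.10 and 10.62 in control livers. All treated livers were above all controls, with replicate 3 standing below the other 4 treated livers. Its change was 0.99 (SE 0.21, 1.99-fold, adjusted p = 0.013, and 0.14 without control replicate 2). Abcd3, the transporter that carries acyl-CoA into peroxisomes, had 12.20, 12.27, 12.12, 12.18 and 12.14 in C20:5 livers, against 11.88, 11.57 and 11.68 in control livers. This small change of 0.47 (SE 0.09, adjusted p = 0.0048) was free of overlap because the treated livers differed so little, and it missed the threshold only without control replicate 2 (adjusted p = 0.070). Of 12 genes of peroxisome division and assembly none passed. Pex11a, which drives peroxisome division, had a change of 1.19 (adjusted p = 0.051) on its brightest probeset and 1.09 (adjusted p = 0.008) on another.

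Vnn1, which encodes a pantetheinase that frees pantothenate in the turnover of coenzyme A, showed 10.69, 10.75, 10.45, 10.85 and 10.44 in C20:5 livers and 7.88, 7.80 and 9.63 in control livers. The treated livers lay within a narrow band above the highest control, and the change was 2.2 (SE 0.31, 4.59-fold, adjusted p = 1.5e-05). A second Vnn1 probeset gave 2.17. Pctp, the phosphatidylcholine transfer protein, had 9.59, 9.69, 9.73, 9.75 and 8.73 in C20:5 livers, against 8.47, 6.98 and 8.58 in control livers. The change of 1.49 (SE 0.32, adjusted p = 0.013) leaned on control replicate 2, without which it was 0.97 (adjusted p = 0.24).

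Pdk4 and Txnip, which both restrain the use of glucose, passed among 19 of glucose and fasting metabolism. Pdk4 encodes the kinase that switches off pyruvate dehydrogenase. It had 5.96, 6.25, 5.57, 6.11 and 8.10 in C20:5 livers, against 2.89, 4.26 and 3.66 in control livers. All 3 controls lay near the floor, meaning that every array was at or under its 10th percentile, so the measured change of 2.80 (SE 0.63, adjusted p = 0.018) gives a difference of at least 1.48, which did not pass with floored values (adjusted p = 0.32). Replicate 5 was the highest treated liver by a wide margin. The call was lost without that array (change 2.37, adjusted p = 0.076), without control replicate 1 (adjusted p = 0.11) and without control replicate 3. Txnip gave 9.76, 9.75, 9.44, 9.68 and 10.27 in C20:5 livers and 8.40, 8.23 and 9.01 in control livers. Its change of 1.24 (SE 0.30, adjusted p = 0.041) passed in 2 of the 8 fits that each left out an array, with an adjusted p of 0.21 without control replicate 2. Fgf21, the fasting hormone of liver, had a change of 1.52 (adjusted p = 0.068), or 1.45 with floored values (adjusted p = 0.010).

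**Figure D2:**
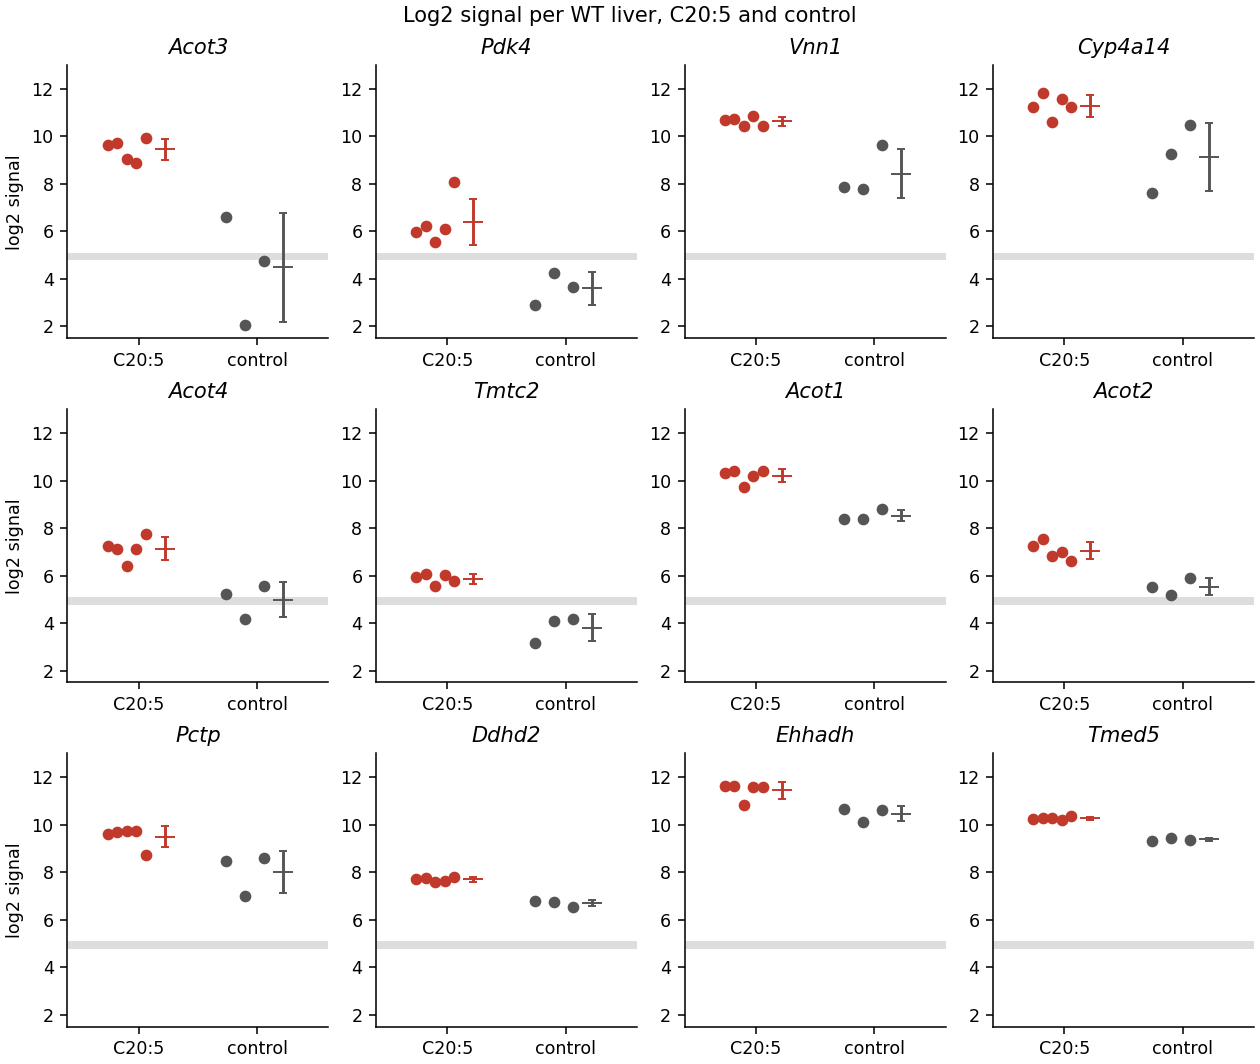
Log2 signal (y axis) of 12 raised genes in each WT liver given C20:5 (red, n = 5) or vehicle (grey, n = 3), with mean and SD beside the points and the range of the arrays' 10th percentiles as a band. The groups do not overlap for any of the 12, but most of these genes were named by a rule that asks for no overlap. The Acot3 controls lie at 6.61, 2.08 and 4.76.

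Several of the increases whose calls held whichever array was left out lay outside fatty acid oxidation. Ddhd2, a lipase of the phospholipase A1 family, had 7.72, 7.77, 7.57, 7.61 and 7.79 in C20:5 livers, against 6.79, 6.74 and 6.54 in control livers. Both groups were tight, and the change of 1.00 (SE 0.14, 2.0-fold, adjusted p = 1.5e-05) was kept whichever array was left out. Tmed5, a cargo receptor of transport between endoplasmic reticulum and Golgi, showed 10.25, 10.28, 10.27, 10.19 and 10.35 in C20:5 livers and 9.32, 9.45 and 9.37 in control livers. Each group lay within a narrow band, and the change was 0.89 (SE 0.16, adjusted p = 0.0015). Tmtc2, an endoplasmic reticulum membrane protein, had 5.93, 6.05, 5.54, 6.01 and 5.76 in C20:5 livers, against 3.14, 4.07 and 4.18 in control livers. With the controls near the floor, its increase was at least 0.94 (measured change 2.06, SE 0.28, adjusted p = 1.5e-05, and the same adjusted p with floored values). Calls for Acot3, Acot4, Vnn1, Tmtc2, Ddhd2 and Tmed5 held in all 8 fits that left out an array. With the spread taken from the 8 arrays alone, Acot1, Ddhd2, Tmed5 and Tmtc2 stayed under the threshold (adjusted p = 0.030 each) and the other 30 called genes did not.

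The changes of the remaining raised genes were 0.39 to 1.57. Among 11 genes of lipid droplets and lipolysis, 1 rose, Fitm2, which takes part in the budding of lipid droplets (change 0.90, adjusted p = 0.016, but 0.21 without control replicate 2). The change of Nceh1, a neutral cholesterol ester hydrolase, was 1.07 (adjusted p = 0.043, but 0.31 without control replicate 3). Tfam, which packages and transcribes mitochondrial DNA, rose by 0.39 (SE 0.09, adjusted p = 0.013, but 0.12 without control replicate 2). Its signals of 8.73, 8.67, 8.45, 8.54 and 8.68 in C20:5 livers, against 8.31, 8.11 and 8.24 in control livers, did not overlap. Enc1, an actin-binding protein, rose by 1.57 (adjusted p = 0.016, but 0.13 without control replicate 3), and Bmpr1a, a receptor for bone morphogenetic proteins, by 0.60 (adjusted p = 0.013, but 0.17 without control replicate 3). Hsdl2, D5Ertd579e, Ylpm1, Ppp2r2d, Mtap, Pus10, Gmfb, Wdr73 and P2ry1 passed in the fit of all arrays, with changes of 0.39 to 1.26, and in at most 4 of the 8 fits that each left out an array. All 9 lost the call without control replicate 2, where the change of P2ry1, the only one whose groups overlapped, was 0.72 instead of 1.26 and that of D5Ertd579e 0.40 instead of 0.60. With floored values the change of P2ry1 was 0.54 (adjusted p = 0.13). That of Wdr73 was then 0.93 on probeset 1428677_at (adjusted p = 2e-07) and 0.86 on probeset 1428678_s_at (adjusted p = 0.0014). Foxp2 also passed, but with its controls near the floor no lower bound above 0 could be set. Among the raised probesets without a gene name, 1443147_at had 9.11, 9.35, 8.73, 8.61 and 9.60 in C20:5 livers, against 6.37, 1.73 and 4.21 in control livers (change 4.98, adjusted p = 0.00014). Control replicates 2 and 3 were again under the 10th percentile of their arrays, and with floored values the change was 3.70 (adjusted p = 5.1e-07).

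The genes that fell were few. Neu1, the lysosomal sialidase, had 6.10, 6.41, 6.79, 6.44 and 6.81 in C20:5 livers and 7.25, 6.95 and 7.51 in control livers. All treated livers lay below all controls, and the change was -0.73 (SE 0.16, adjusted p = 0.018). The call was lost without C20:5 replicate 1 or 2 and without control replicate 1 or 3 (adjusted p = 0.24 at most). Clcn7, a chloride transporter of lysosomes, had a change of -0.64 (adjusted p = 0.049, but 0.21 without control replicate 2), and Aldh16a1, of the aldehyde dehydrogenase family, one of -0.60 (adjusted p = 0.049, but 0.15 without control replicate 1). Cyp26a1, which breaks down retinoic acid, had 2.15, 2.23, 3.60, 2.18 and 3.23 in C20:5 livers, all near the floor, against 3.24, 6.59 and 3.75 in control livers. The groups overlapped, no bound could be set, and the change of -1.85 (adjusted p = 0.019) was -0.82 without control replicate 2 (adjusted p = 0.42). None of the 7 lowered probesets kept its call in all 8 fits.

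Over the lists of genes by function, called increases took in 4 of 10 thioesterases and at most 2 members of each of the other lists of fatty acid metabolism. None of 15 genes of fatty acid uptake, binding and activation passed either threshold (median 0.13). Of 24 measured genes that are established PPARα targets, 7 rose (Acot1, Acot2, Acot3, Cyp4a14, Ehhadh, Pdk4 and Vnn1) and 15 passed the unadjusted threshold, against 0.45% and 2.15% of all genes. All 24 had changes above 0, and the list median was 0.54. For 18 every C20:5 array lay above every control array, against 3.87% of all genes. The list was drawn up with earlier results of these data known, so these shares are a description. Among 6 genes of the carnitine shuttle, which moves acyl groups into mitochondria, none passed the adjusted threshold and 4 passed the unadjusted one, with a list median of 0.45. Slc22a5, which takes up carnitine, had a change of 1.13, and Crat, which makes acetylcarnitine, one of 1.03 (adjusted p = 0.054 each). Of 17 genes of mitochondrial beta-oxidation none passed the adjusted threshold and 1 the unadjusted one (median 0.19). Cidec, which fuses lipid droplets, and G0s2, which inhibits the lipase that breaks down their triglyceride, had large changes that did not pass. The Cidec values were 6.14, 6.36, 5.03, 5.90 and 4.34 in C20:5 livers and 3.14, 3.99 and 3.41 in control livers, all 3 of these near the floor (adjusted p = 0.16). G0s2 showed 11.06, 11.47, 10.99, 11.59 and 11.35 in C20:5 livers, against 9.13, 9.94 and 9.49 in control livers, with no overlap (change 1.77, adjusted p = 0.15).

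None of 14 lipogenesis genes passed either threshold, and their median change was 0.01. Srebf1, the transcription factor that drives fatty acid synthesis, had 8.53, 8.14, 8.49, 8.33 and 7.61 in C20:5 livers, against 10.11, 8.49 and 9.36 in control livers. The groups overlapped at their edges and the change was -1.10 (SE 0.44, adjusted p = 0.37). The 15 genes of cholesterol synthesis had a median change of 0.01, and none passed either threshold. In PPARα -/- liver all 15 had changes below 0 with a median of -0.56, and all 15 differences between genotypes were above 0, but none of these passed either threshold. Other lists leaned the other way. Genotype differences were below 0 for 24 of 25 acute phase genes (median -0.43) and 15 of 19 immediate early and growth arrest genes (median -0.5). In each of these lists 2 were lower at the unadjusted threshold, against 34 of 6661 genes, and none at the adjusted one. Of 22 genes of amino acid breakdown and the urea cycle, 20 had changes below 0 in WT liver and 8 lay wholly below the controls, against 2.73% of all genes. Their median was -0.19, however, and 2 passed the unadjusted threshold, against 0.961% of all genes, and none the adjusted one. Prodh, the first enzyme of proline breakdown, gave 9.07, 9.23, 9.32, 9.03 and 9.22 in C20:5 livers and 9.88, 9.85 and 9.64 in control livers (change -0.62, adjusted p = 0.18). All 28 complement and coagulation genes had changes below 0, between -0.39 and -0.01, with a median of -0.15. Of these, 3 passed the unadjusted threshold, against 0.961% of all genes, and none the adjusted one. Wholly below the controls lay 4, against 2.73% of all genes. Over all 6661 genes, 3208 had changes above 0. No gene of the interferon, NRF2, chaperone, circadian, drug-metabolizing enzyme, respiratory chain or cell cycle lists passed either threshold.

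**Figure D3:**
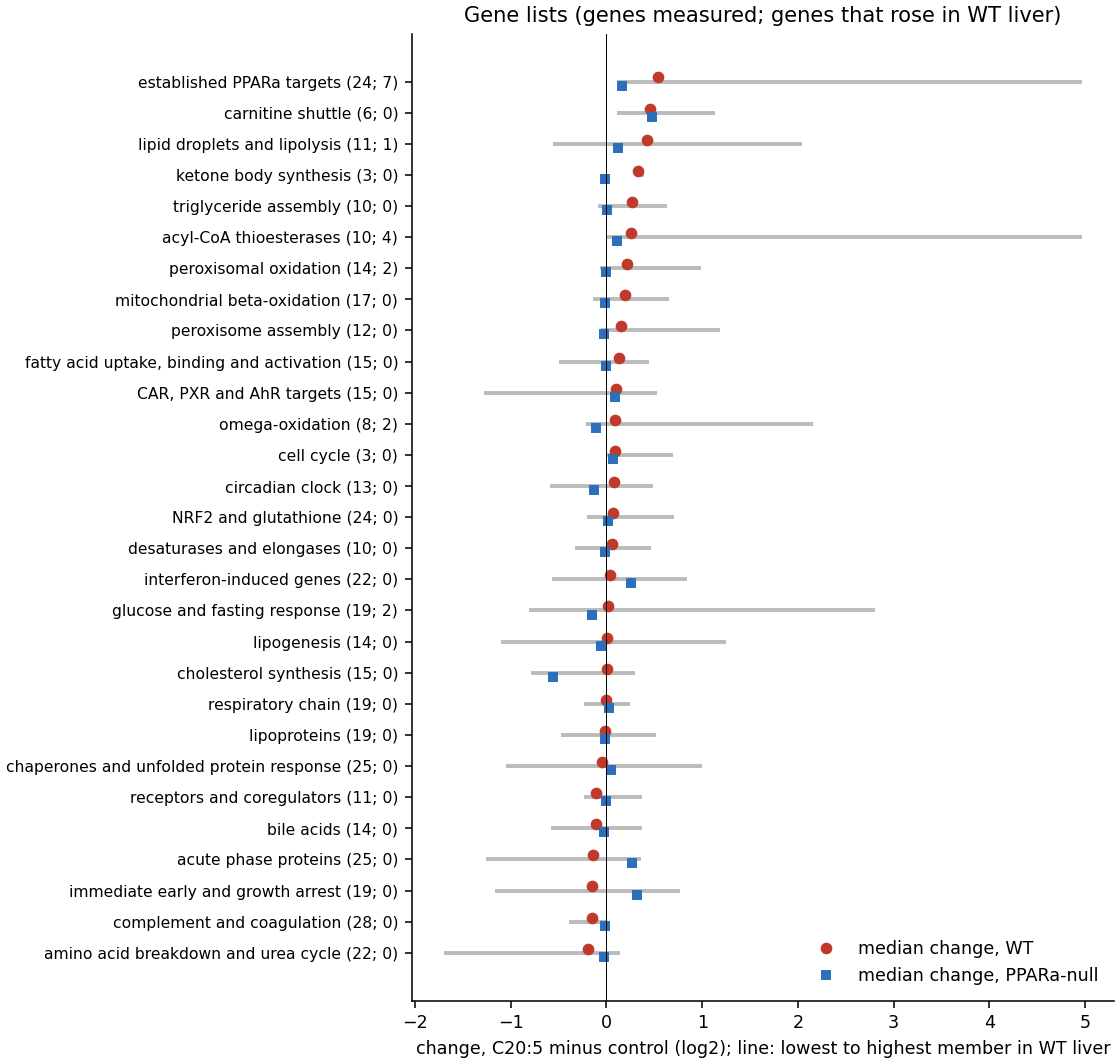
Median change with C20:5 (x axis, log2, C20:5 minus control) per gene list in WT liver (red circles) and PPARα -/- liver (blue squares, PPARa-null in the plot), with lines from the lowest to the highest member in WT liver and, in brackets, the genes measured and the genes that rose in WT liver. The established PPARα targets have medians of 0.54 in WT and 0.16 in PPARα -/- liver.

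In PPARα -/- liver, 6 probesets passed the adjusted threshold with C20:5 (0.0526% of 11412) and 147 the unadjusted one (1.29%). The count of 6 was 1 without PPARα -/- C20:5 replicate 1, 2 or 3, and 2 without control replicate 4 or 5. Of the 55 probesets raised in WT liver, none passed the adjusted threshold in PPARα -/- liver, and 3 passed the unadjusted one. Their median change was 1.11 in WT liver, which chose them, and 0.10 in PPARα -/- liver. For 22 of the 55 both PPARα -/- groups were near the floor. The difference between the genotypes was tested directly, and it passed the adjusted threshold for 5 probesets (0.0438% of 11412), all with the larger change in WT liver. This count was 13 without WT control replicate 1 and 3 without WT C20:5 replicate 2 or 5, PPARα -/- C20:5 replicate 1, 2 or 3, or PPARα -/- control replicate 1. With floored values it was 10, of which 9 had the larger change in WT liver, and the calls of Pdk4, Cyp4a31 and Rab30 described next were lost. Since the genotypes also differ in substrain, genotype and substrain cannot be told apart.

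Among the genes with a called difference between genotypes, only Ddhd2 had no group near the floor. Its signals in PPARα -/- liver were 5.66, 5.78, 5.60 and 5.49 with C20:5, against 5.79, 5.74, 5.62, 5.75 and 5.66 with vehicle. These groups overlapped, with a change of -0.08 (95% interval -0.34 to 0.18), and the difference from the WT change was 1.08 (adjusted p = 0.0033). For Pdk4, PPARα -/- livers had 4.77, 4.61, 4.43 and 4.56 with C20:5, all near the floor, against 6.17, 5.59, 6.73, 5.67 and 5.68 with vehicle. The direction was thus opposite to that in WT liver, although the change of -1.38 did not pass (adjusted p = 0.85). The measured genotype difference was 4.17 (SE 0.85, adjusted p = 0.034, and up to 0.10 when single arrays of either genotype were left out), but WT controls were near the floor too, and with floored values it was 2.41 (adjusted p = 0.44). Tmtc2, Rab30, a small GTPase of the Golgi (probeset 1440325_at), and Cyp4a31 (probeset 1424943_at) passed as well, with measured differences of 2.29 (adjusted p = 0.0019), 2.00 (adjusted p = 0.0019) and 3.24 (adjusted p = 0.034). All 3 were near the floor in both PPARα -/- groups. With floored values Tmtc2 kept a difference of 0.90 (adjusted p = 0.017), and that of Cyp4a31 was 1.41 (adjusted p = 0.32). That of Rab30 was 0.27 on probeset 1440325_at (adjusted p = 1.0). On another Rab30 probeset, 1426452_a_at, the floored change was 1.7 in WT liver (adjusted p = 0.001) and 0.03 in PPARα -/- liver. The floored genotype difference on 1426452_a_at was 1.67 and did not pass (adjusted p = 0.12).

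For the other raised genes the comparison between genotypes was limited by the floor or did not pass. Vnn1 lay between 1.83 and 2.61 with C20:5 and between 1.75 and 2.06 with vehicle in PPARα -/- liver, and Cyp4a14 between 1.61 and 2.36 with C20:5 and between 1.86 and 2.26 with vehicle, all near the floor. Their measured genotype differences of 1.78 and 2.13 did not pass (adjusted p = 0.13 and 0.15), whereas with floored values they were 2.17 (adjusted p = 0.0021) and 2.12 (adjusted p = 0.040). The floored genotype difference of Wdr73 was 0.90 on probeset 1428677_at (adjusted p = 0.0013). On its probeset 1428678_s_at it was 0.82 and did not pass (adjusted p = 0.17). The Acot3 signals in PPARα -/- liver were 7.05, 7.61, 4.45 and 6.32 with C20:5, against 6.22, 4.69, 4.81, 7.0 and 3.82 with vehicle, which overlapped widely. The difference of 3.92 from the WT change did not pass (adjusted p = 0.19), nor did that of 3.14 with floored values (adjusted p = 0.076). Acot4 and Acot1 had changes of 0.69 and 0.73 in PPARα -/- liver, neither past the threshold, with genotype differences of 1.46 (adjusted p = 0.32) and 0.95 (adjusted p = 1.0). The carnitine shuttle list had medians of 0.48 in PPARα -/- liver and 0.45 in WT liver. Slc25a20, the mitochondrial carrier of acylcarnitines, rose in PPARα -/- liver by 0.66 and 0.82 on its 2 probesets (adjusted p = 0.024 each), and its change in WT liver was 0.45 (adjusted p = 0.19). Both PPARα -/- calls were lost without C20:5 replicate 1, 2 or 3 or control replicate 5, and with the 2 groups fitted alone (adjusted p = 0.44 and 0.65).

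The other PPARα -/- calls were of other genes. G6pc, the glucose-6-phosphatase of gluconeogenesis, gave 9.41, 8.95, 9.05 and 9.68 with C20:5, against 10.44, 10.54, 11.42, 11.49 and 11.39 with vehicle. It fell without overlap (change -1.79, adjusted p = 0.024), while its change in WT liver was -0.10. Cxcl1, a chemokine for neutrophils, rose by at least 0.87 in PPARα -/- liver on probeset 1441855_x_at (adjusted p = 0.0027). On another Cxcl1 probeset, 1419209_at, the floored change was 3.46 and did not pass (adjusted p = 0.071). Etnppl, which breaks down phosphoethanolamine, fell there by at least 2.29 on the log2 scale on probeset 1431406_at (adjusted p = 0.011). Frmd4b, a scaffold protein, fell by 1.34 on probeset 1426594_at (adjusted p = 0.024). With floored values, Etnppl changed by -0.74 on probeset 1452975_at and did not pass. In WT liver the floored changes on the called probesets were -0.63 for Etnppl, -0.87 for Frmd4b and -0.48 for Cxcl1, and none passed. On Cxcl1 probeset 1419209_at the floored WT change was 0.52, which did not pass either. The floored genotype difference of Cxcl1 was -1.35 on 1441855_x_at (adjusted p = 0.0021). On 1419209_at it was -2.94 and did not pass (adjusted p = 0.85). Among the PPARα -/- calls, that of Cxcl1 was kept whichever array was left out. Those of G6pc, Etnppl and Frmd4b were lost without PPARα -/- C20:5 replicate 1, 2 or 3 or control replicate 4. Without C20:5 replicate 3 the adjusted p-values were 0.25 for G6pc and 0.41 for Frmd4b. With the 2 groups fitted alone, G6pc and Frmd4b did not pass either.

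**Figure D4:**
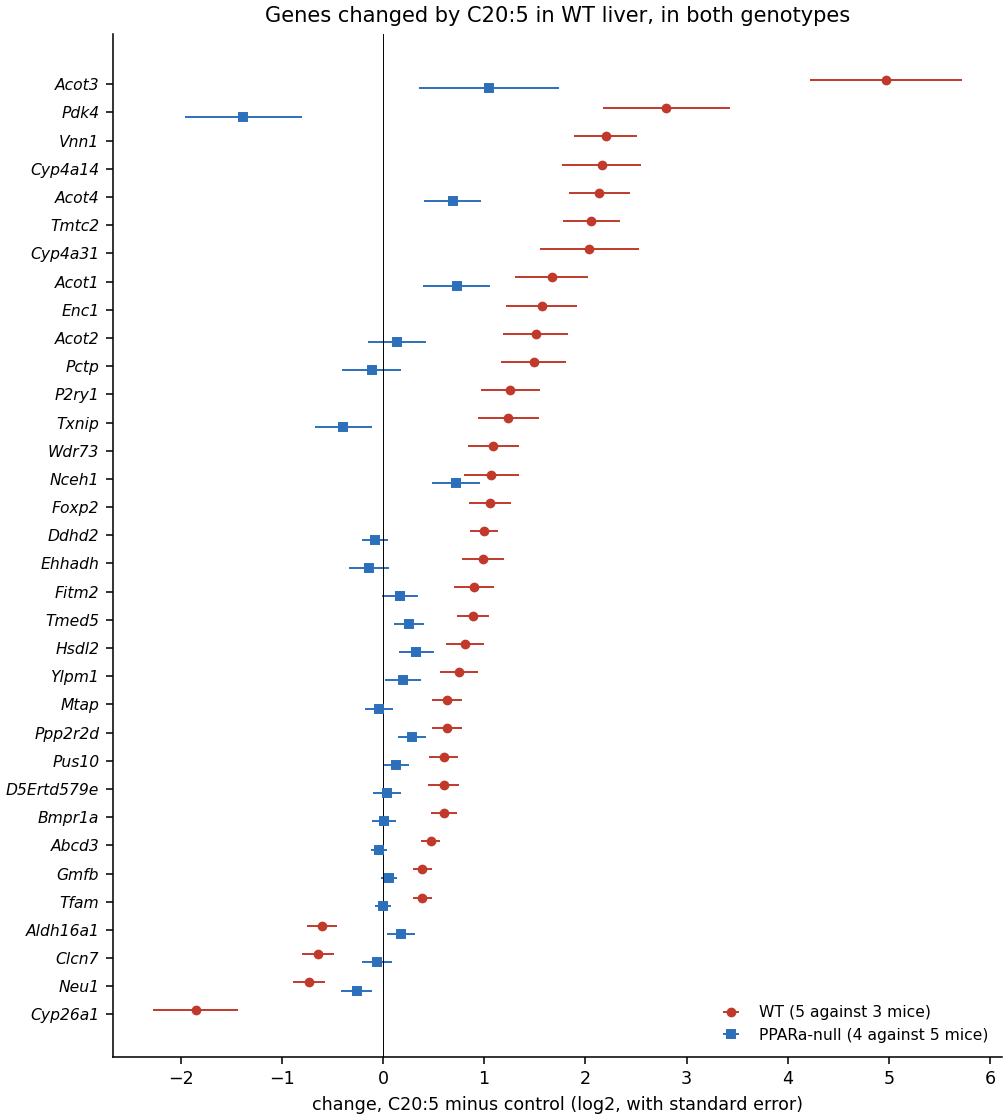
Change with C20:5 (x axis, log2, C20:5 minus control, with standard error) of the 34 genes called in WT liver, in WT (red circles, 5 against 3 mice) and PPARα -/- mice (blue squares, 4 against 5 mice; PPARa-null in the plot). Squares are left out for the 9 genes near the floor in both PPARα -/- groups, and Ddhd2 lies at 1.00 in WT and -0.08 in PPARα -/- liver.

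The direct contrasts with the other triglycerides compared means that included no control mice, and were made at the same volume and time. Their spread was taken from all 56 first-run arrays, controls included. Set against C22:6, 4 probesets differed (0.0351% of 11412), and the count was 36 without C22:6 replicate 3 and 2 without C22:6 replicate 5. Among them were Ppp1r14a and Alpl, neither of which passed with the 2 groups fitted alone (adjusted p = 0.16 each). Ppp1r14a, an inhibitor of myosin phosphatase, was higher with C20:5, at 5.24 to 6.04, against 3.36 to 5.10 with C22:6 (difference 1.66, SE 0.28, adjusted p = 0.0016). With floored values the difference was 0.67 and did not pass (adjusted p = 0.38). Its signals in control livers were 6.29, 6.93 and 7.08. Alpl, alkaline phosphatase, was lower with C20:5, at 5.11 to 5.73, against 6.16 to 7.41 with C22:6 (difference -1.17, SE 0.21, adjusted p = 0.0038), a call that was lost without C22:6 replicate 5 and kept with floored values (adjusted p = 7.9e-08). The other 2 were probesets of Acot2 and Abhd6 near the floor with C20:5, for which no difference can be stated. With measured values, none of the 55 raised probesets, which the same C20:5 arrays chose, differed between C20:5 and C22:6 at the adjusted threshold. The unadjusted one was passed by 11, against 1.85% of all probesets. With floored values 6 probesets differed, all lower with C20:5. Among them were Cyp4a31 probeset 1424943_at (difference -1.32, adjusted p = 0.02) and Acot4 probeset 1422077_at (-0.61, adjusted p = 0.0059). Of the 24 established PPARα targets, 23 had lower means with C20:5 than with C22:6, with a list median of -0.27, against 0.02 over all genes, and 7 passed the unadjusted threshold, against 0.856% of all genes that were lower at that threshold.

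These intervals leave room for differences of some size. Against C22:6, Ehhadh had a difference of -0.76 ( 95% interval -1.14 to -0.39, adjusted p = 0.18), Acot1 had a difference of -1.01 (-1.63 to -0.38, adjusted p = 0.36) and Pdk4 one of -1.57 (-2.67 to -0.48, adjusted p = 0.45). For Acot3 the interval ran from -2.30 to 0.32. The closest pairs were Tmtc2 (difference -0.03, interval -0.53 to 0.46), Vnn1 (-0.13, -0.67 to 0.41) and Ddhd2 (-0.17, -0.41 to 0.08).

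Set against C18:1, 153 probesets differed (1.34% of 11412), of which 119 were higher with C20:5, and 31 of the 55 raised probesets were among them. This count is a description, since the C20:5 arrays that chose the 55 also enter this contrast. The count was 54 without C20:5 replicate 1, 80 without C18:1 replicate 4 and 231 without C20:5 replicate 5, with 92 to 101 without C20:5 replicate 2 or 4 or C18:1 replicate 3. Ddhd2 had a mean of 7.69 ± 0.10 with C20:5 and 6.65 ± 0.30 with C18:1 (SD, n = 5 each), a difference of 1.04 (adjusted p = 4.3e-07). Its C18:1 mean was close to the 6.69 ± 0.14 of control livers (n = 3). Vnn1 (1.35, adjusted p = 0.0036), Acot2 (1.24, adjusted p = 0.0097), Ehhadh (0.83, adjusted p = 0.0097), Tmed5 (0.73, adjusted p = 0.0027) and Abcd3 (0.43, adjusted p = 0.0018) were likewise higher with C20:5, and Neu1 was lower (-0.71, adjusted p = 0.0043). Cidec averaged 5.55 ± 0.85 with C20:5 and 3.03 ± 0.41 with C18:1, where its signal was near the floor (adjusted p = 0.0077, but 0.44 with floored values, which gave a difference of 0.72). Of the 6 carnitine shuttle genes 4 were higher with C20:5 than with C18:1, among them Slc22a5 (0.99, adjusted p = 0.028) and Crat (0.91, adjusted p = 0.027). The thioesterases with the largest increases against vehicle were not separated from C18:1: Acot3 had a difference of 1.42 (95% interval 0.11 to 2.72, adjusted p = 0.33) and Acot4 one of 0.68 (0.15 to 1.20, adjusted p = 0.21). Acot3 averaged 8.03 ± 1.12 with C18:1, between the means of 9.45 ± 0.46 with C20:5 and 4.48 ± 2.28 in control livers.

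**Figure D5:**
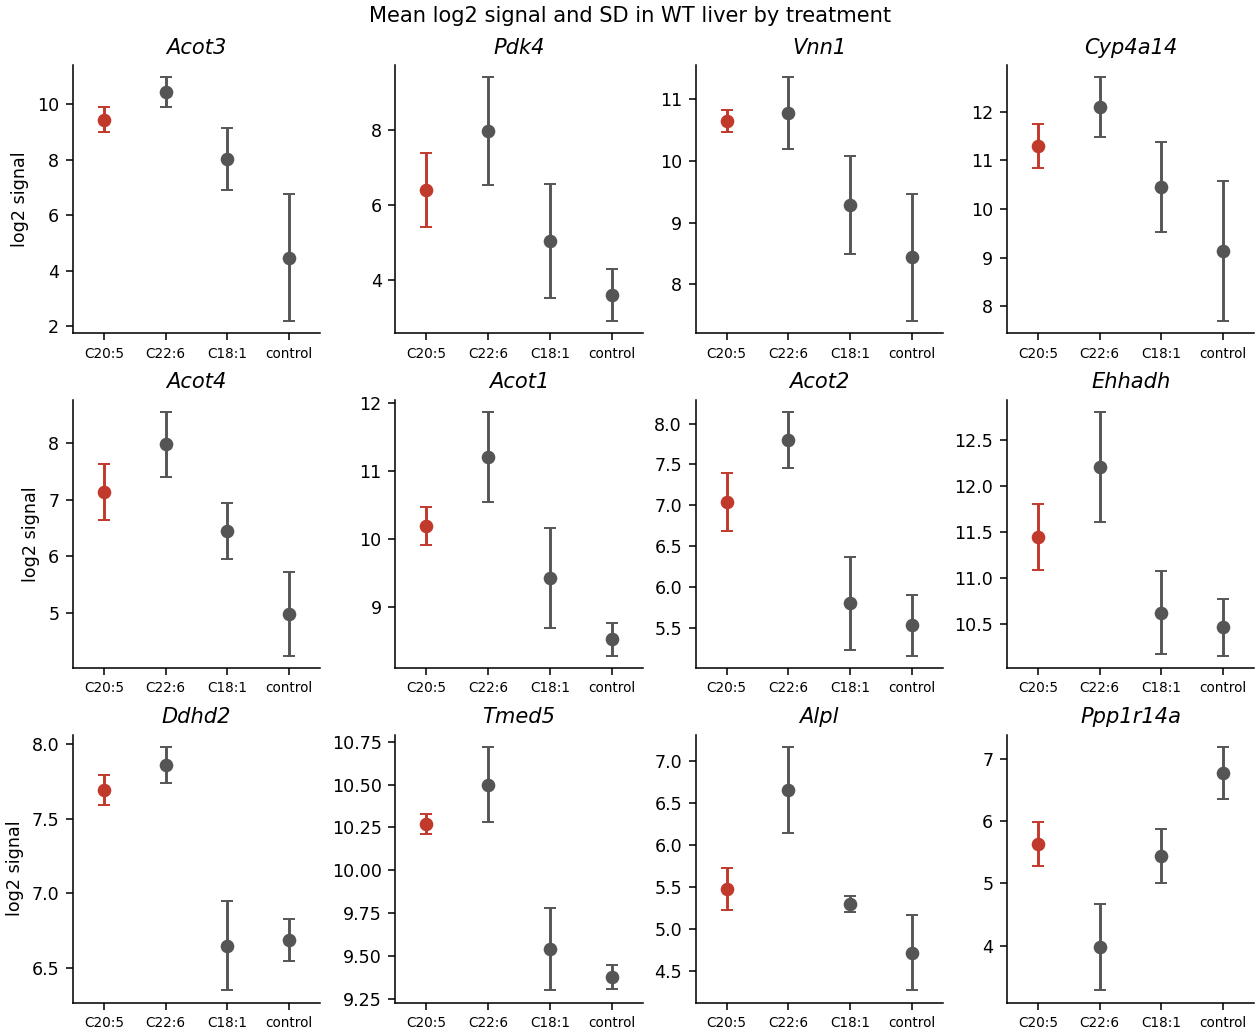
Mean log2 signal with SD (y axis) of 12 genes in WT liver given the triglyceride of C20:5 (red), C22:6 or C18:1 (n = 5 each) or vehicle (n = 3). Ddhd2 averages 7.69 with C20:5 and 6.65 with C18:1, and Alpl averages 5.48 with C20:5 and 6.66 with C22:6.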

How the data were processed

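Liver RNA was hybridised to Affymetrix Mouse Genome 430 2.0 arrays, 1 array per mouse. The authors normalised the scans with GC-RMA (GCRMA 2.20 per the labels) and deposited linear intensities for 11463 probesets, a reduced set in which few probesets vary little: 980 have an inter-quartile range under 0.25 on the log2 scale over all arrays. The 51 control probesets were left out and log2 was taken. Precision is set by how many arrays each group has, and changes of dim probesets are limited by the background. Groups came from the labels. limma 3.58.1 (R 4.3.3; lmFit, contrasts.fit, eBayes) was fitted to all 56 first-run arrays with 12 group means, which assumes a like spread in all groups, and p-values were adjusted by Benjamini-Hochberg over all 11412 probesets. The script was tested on simulated data. Of these probesets, 10279 had 1 gene symbol, 406 several and 727 none. A gene was represented by its 1-symbol probeset with the highest mean log2 signal.

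A change against a group near the floor was given as a lower bound, computed with each of its arrays at the higher of its 10th percentile and its measured value. Named genes were the 15 largest called changes without overlap in each direction, the 4 largest per list, the 5 largest each way against C22:6 and C18:1, the 10 largest genotype differences, and genes named in the study. Other called genes and the unnamed probeset were named after their values were seen. The members and lists were chosen with earlier results of these data known. The alternatives tried were filters on variation and on signal, the arrays in the fit, an intensity trend, array weights, 2 scalings, a replicate block, a fold filter and leaving out each array. Setting values under an array's 10th percentile to that percentile (floored values) was added after seeing the data.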

Additional observations from a re-analysis of the deposited data

Results flagged for a closer look

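Pdk4, Tmtc2, Ddhd2, Rab30 and Cyp4a31 stood out because the C20:5 change differed between the genotypes when the difference itself was tested (limma interaction contrast). The measured differences, WT minus PPARα -/-, were 4.17 for Pdk4 (adjusted p = 0.034), 3.24 for Cyp4a31 on probeset 1424943_at (adjusted p = 0.034), 2.29 for Tmtc2 (adjusted p = 0.0019), 2.00 for Rab30 on probeset 1440325_at (adjusted p = 0.0019) and 1.08 for Ddhd2 (adjusted p = 0.0033). All but Ddhd2 include groups near the floor. With values under an array's 10th percentile set to it, the differences for Pdk4 (2.41), Cyp4a31 (1.41) and Rab30 (0.27) did not pass. Those for Tmtc2 (0.90) and Ddhd2 (1.08) passed. On another Rab30 probeset, 1426452_a_at, the difference was then 1.67 and did not pass either (adjusted p = 0.12). Of 27 alternatives, Tmtc2 kept its call in 27, Rab30 in 26, Ddhd2 in 26 (adjusted p = 0.07 with both array runs in the fit), Pdk4 in 16 and Cyp4a31 in 10. The substrain of the mice differed with genotype and cannot be told apart from it.

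In 12 of 206 groups tested, 1 array stood far from the others, where chance flags about 1 in 20. C20:5 replicate 3 in WT liver was the lowest of its group for Ehhadh (10.81, nearest 11.59), Hsdl2 (9.18, nearest 9.74), Fitm2 (7.48, nearest 7.69) and Ppp2r2d (8.51, nearest 8.88). C20:5 replicate 5 was the highest for Pdk4 (8.10, nearest 6.25), Pcna (9.34, nearest 8.93) and Hspa1a (3.98, nearest 2.32), and the lowest for Pctp (8.73, nearest 9.59) and Ppara (10.43, nearest 10.99). C20:5 replicate 4 was lowest for Aldh1b1 (5.86, nearest 6.42), C20:5 replicate 2 was highest for Aldh3a2 (10.13, nearest 9.99), and in PPARα -/- liver control replicate 2 was highest for Cxcl1 (8.27, nearest 7.27).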

How the results depend on the processing

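For C20:5 against control in WT liver, 62 probesets passed the adjusted threshold (356 the unadjusted), 394 (925) with array weights, 7 adjusted with the 2 groups fitted alone, and 181 unadjusted with a fold of at least 1.5. Leaving out single arrays gave 28 to 71 (297 to 404). In PPARα -/- liver the 6 (147) became 12 (335) with array weights, and 1 to 8 (92 to 188) without single arrays. The genotype difference gave 5 (132), 19 (262) with weights, 2 adjusted with both runs, and 3 to 13 (89 to 282) without single arrays. Against C22:6 there were 4 (211), 161 (682) with weights, 1 adjusted with the 2 groups fitted alone, and 2 to 36 (129 to 347) without single arrays. Against C18:1 there were 153, then 1435 (1676) with weights, 24 adjusted with the 2 groups fitted alone, and 54 to 231 (413 to 708) without single arrays. Same-numbered C20:5 and control mice in WT liver had deviations that correlated at -0.06, 0.07 and 0.11. Of 3 controls, 0 correlated best with the C20:5 array of its own number. With 3 pairs, whether same-numbered mice share anything cannot be decided. Same-numbered arrays correlated at 0.02 to 0.34 between C20:5 and C22:6, and at -0.01 to 0.46 between C20:5 and C18:1, not over 0.1 for every pair. With the replicate number as a block, 76 (447) passed in WT liver, 259 unadjusted in PPARα -/- liver, 216 unadjusted for the genotype difference and 263 adjusted against C18:1. The cause of these shifts was not tested. The number of raised genes ranged over 2 to 14 for established PPARα targets, 1 to 4 for thioesterases, 0 to 2 for omega-oxidation and peroxisomal oxidation, 0 to 3 for glucose and fasting and 0 to 4 for lipid droplets. Of 75 single-gene changes with C20:5 in WT liver none reversed under any alternative. Leaving out single arrays gave 600 values, of which 107 lost and 7 gained a call. With the 2 groups fitted alone, 30 of the 34 called genes lost their call. An alternative chosen after seeing the data set values under an array's 10th percentile to it: 82 adjusted calls in WT liver, 11 in PPARα -/- liver, 10 for the genotype difference, and of the 34 called genes Cyp26a1, Foxp2, P2ry1 and Pdk4 lost their call. The Acot2 probeset 1422996_at near the floor, set against C22:6, then gave 0.02 in place of -1.54. Near the floor, changes are limited by background.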
